A study of Mus musculus with 9 samples.

Results

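The genes of MHC class II antigen presentation were examined in whole osteosarcomas from 2 mouse models, one driven by p53 loss and one carrying a Myc knockin. The set has 8 genes, picked by symbol out of the 55367 in the deposited count table. They are H2-Aa, H2-Ab1 and H2-Eb1, which encode chains of the classical class II molecules, Cd74, H2-DMa, H2-DMb1, Ciita and Ctss. All 8 had enough reads to be tested. The rule itself used gene symbols and no threshold on a measured value.

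The 4 p53-driven tumors came from mice of the genotype Col2.3-Cre/TrpP53fl/+. Their Cre recombinase was under the osteoblast promoter Col2.3 and acted on 1 floxed allele of Trp53. The 5 Myc-knockin tumors came from mice labelled with Cre, a Lox-Stop-Lox (LSL) c-MycT58A allele and p53fl/+, in which Cre also releases a stop cassette before a Myc allele with the T58A substitution. Both groups thus carried the floxed Trp53 allele and Cre, and by their genotype labels they differed by the Myc allele. The comparison addresses whether the immune content of the tumors differs with Myc. Ages and sexes were not in the labels. The paper reports that Myc-knockin mice had a shorter median time to sacrifice than the p53 mice. Age may therefore differ between the groups, and it cannot be told apart from genotype here. The tumors were spontaneous and resected whole, so each library mixes tumor cells with leukocytes, vessels and bone cells. In such bulk RNA, fewer cells of a type and less RNA per cell cannot be told apart.

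Tumors are named by their columns in the table, which carry F or M before a number and no replicate number of the labels. The names F187, F325, F331, F368, M408 and M624 are tied to a genotype in material that accompanies the study, while M351, M9 and M664 were placed in the Myc-knockin group by the letter M. Myc itself, in CPM, edgeR's unit of reads relative to the normalized library, read 46.2, 43.5, 67.1 and 60.4 in the p53-driven tumors. It read 270 in M351, 520 in M408, 144 in M9, 1045 in M624 and 905 in M664, so the groups did not overlap (log2 fold change 3.41, standard error 0.59, edgeR adjusted p = 0.0217).

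The libraries were of unequal quality. Totals ran from 2716322 to 17073285 reads on genes, and a floor of 3 reads equalled 0.114 to 2.39 CPM. Satellite-repeat genes took 23.2% to 81% of the reads in F187, M351, M408 and M9 and at most 0.0242% in the other 5. Reads on chemosensory receptor genes, which tumors should lack, were used to estimate the genomic background on every gene. That background came to 5.5% of the remaining reads in F187, 16.8% in M351 and 24.1% in M9, against at most 0.596% elsewhere. Rn7sk, which is not polyadenylated, had 91 reads in M624 and 147 in M664 and at least 11785 in the other 7, so that this pair of Myc-knockin libraries also stood apart. The 6 osteoblast markers had reads in every tumor except Bglap in M408, with a summed level of 2239 to 24441 CPM in the Myc-knockin tumors and 42338 to 95346 CPM in the p53-driven tumors.

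Class II molecules display peptides from engulfed proteins to CD4+ T cells. The alpha and beta chains assemble with the invariant chain, encoded by Cd74, which fills the groove until cathepsin S (Ctss) cuts it down in the endosome. The heterodimer of H2-DMa and H2-DMb1 then helps exchange its remnant for antigenic peptide. Ciita is the coactivator that switches the chain genes, Cd74 and the DM genes on together. It does so by docking on RFX proteins at the X box and on NF-Y at the Y box of their promoters. Dendritic cells, B cells and activated macrophages express the pathway constitutively or strongly, and interferon-gamma induces Ciita in many other cells.

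Of the genes, 5 lie together in the MHC on chromosome 17, within 197.1 kb from 34119541 to 34316674 of mm10. These are H2-DMa (ENSMUSG00000037649), H2-DMb1 (ENSMUSG00000079547), H2-Ab1 (ENSMUSG00000073421), H2-Aa (ENSMUSG00000036594) and H2-Eb1 (ENSMUSG00000060586). The other members lie outside the MHC, each on a chromosome of its own. RefSeq promoter sequences (GRCm38.p6) were matched for 5 of the 8, namely Ctss, H2-Aa, H2-DMa, H2-DMb1 and H2-Eb1.

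The stretches before the start sites of H2-Aa and H2-Eb1 are shown because they hold the elements through which Ciita is known to act. Capitals mark 2 motifs, chosen after the sequences were seen and searched on both strands of the 250 bases before each start. They are TGATTGG, the core of the Y box, and AACTGAT, part of an X box.
H2-Aa, chr17:34287853-34287963, minus strand, 140 to 30 bases before the start: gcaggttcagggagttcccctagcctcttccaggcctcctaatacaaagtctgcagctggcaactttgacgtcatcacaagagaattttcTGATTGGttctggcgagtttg
H2-Eb1, chr17:34305727-34305837, plus strand, 140 to 30 bases before the start: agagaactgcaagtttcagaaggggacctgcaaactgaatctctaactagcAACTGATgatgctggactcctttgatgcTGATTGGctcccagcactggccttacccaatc

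The Y box core stood 61 to 55 bases before the start of H2-Eb1 and 50 to 44 bases before that of H2-Aa. H2-Eb1 also had the X box letters, with 21 bases between them and its Y box. H2-DMb1 held both as well, with 22 bases between them. Its RefSeq start lies inside the first exon of the GENCODE model, so these letters fall in a part that GENCODE counts as transcribed, and they are not shown. Neither motif was found before H2-DMa or Ctss. Over 32851 promoters of the same length, the Y box core was present in 7.23% and the X box letters in 2.09%. No matches overlapped. A match describes letters, and no match says only that these letters are not in the window.

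None of the 8 class II genes passed the test between the models. No member was called at an adjusted p under 0.05 with a fold change over 1.5 by edgeR's quasi-likelihood test, where 5.27% of the 15365 tested genes were called, 2.26% as higher and 3.00% as lower in the Myc-knockin tumors. Without adjustment, 0 of 8 had a p under 0.05, against 26.8% of all tested genes, and DESeq2 also called 0 of 8, where it called 17.4% of all genes. In none of the 8 were the groups separate, against 13.0% of all tested genes. The fitted change was higher in the Myc-knockin tumors for 6 genes and lower for H2-Aa and H2-DMb1, with a median log2 fold change of 0.40 for the members and 0.14 for all tested genes. Without F187, M351 and M9, a choice made after seeing the data, the count of members called was also 0. The 95% intervals of the changes are wide, and every one reached beyond a 1.5-fold change in at least 1 direction.

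**Figure D1:**
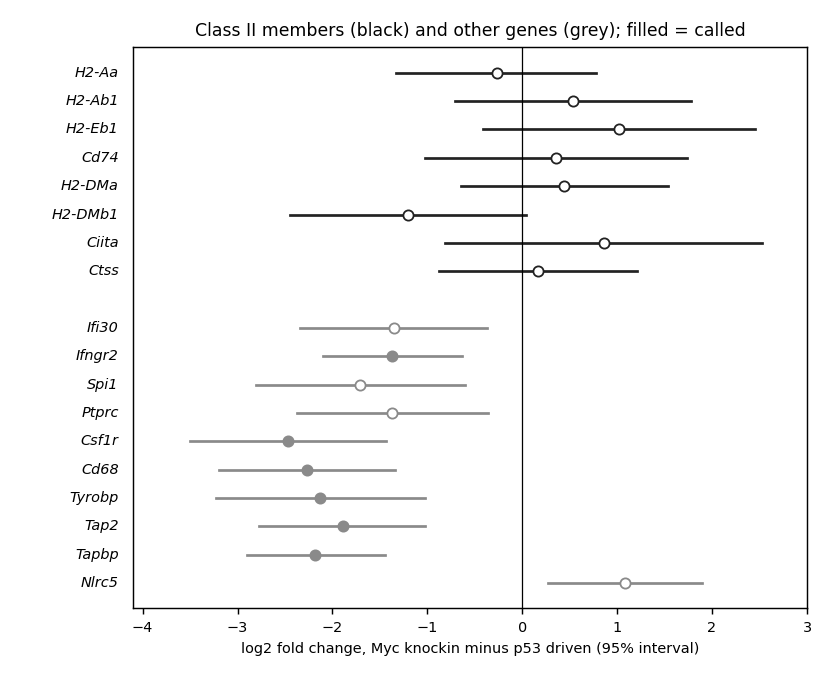
Log2 fold change of each class II gene (black) in Myc-knockin over p53-driven tumors, with its 95% confidence interval from edgeR. Ifi30, Ifngr2, Spi1, Ptprc, Csf1r, Cd68, Tyrobp, Tap2, Tapbp and Nlrc5 are drawn in grey, and filled points mark genes called. Among the class II genes each interval crosses 0, and H2-DMb1, at -1.20, lies lowest while H2-Eb1, at 1.02, lies highest.

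On a scale per transcript length (RPKM, using the principal transcript), the set spanned a wide range of levels. Among p53-driven tumors Ctss led with 69 ± 30.2 RPKM (SD, n = 4), followed by Cd74 with 43.9 ± 17.7, H2-Aa with 35.1 ± 17.5 and H2-Ab1 with 19.6 ± 7.2. H2-DMb1 had 12.9 ± 2.04 RPKM, H2-Eb1 7.04 ± 3.12, H2-DMa 3.57 ± 1.35 and Ciita, the regulator, 0.602 ± 0.156. The Myc-knockin tumors gave nearly the same order (n = 5), from 77.2 ± 45.3 RPKM for Ctss and 55.9 ± 43.9 for Cd74 to 4.83 ± 3.06 for H2-DMa and 1.11 ± 0.879 for Ciita. In the p53-driven tumors each of the 5 most abundant genes lay within the larger SD of its neighbour, and the steps from H2-DMb1 down to Ciita were larger than both SDs. In the Myc-knockin tumors only the step down to Ciita was. Only H2-DMb1 and H2-Eb1 exchanged places, since H2-DMb1 averaged 5.31 ± 5.41 RPKM and H2-Eb1 14.1 ± 13.4 in the Myc-knockin tumors.

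H2-Aa encodes the alpha chain of I-A, the principal class II molecule of many mouse strains. Its level was 12.2 CPM in F187, 52.6 in F325, 55.5 in F331 and 37.9 in F368, and 14.2 in M351, 63.2 in M408, 26.3 in M9, 25.3 in M624 and 34.5 in M664. One library of each model was low, and the Myc-knockin range enclosed the p53-driven range nearly whole. Means were 39.6 ± 19.8 CPM (SD, n = 4) and 32.7 ± 18.5 CPM (SD, n = 5), with a log2 fold change of -0.27 (95% interval -1.33 to 0.78, edgeR adjusted p = 0.754).

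H2-Ab1, the beta chain that pairs with it, read 12.6, 27.6, 33 and 21.9 CPM in the p53-driven tumors in the same order. In the Myc-knockin tumors it read 9.23 in M351, 29.9 in M408, 13.5 in M9, 84.7 in M624 and 32.4 in M664. M624 alone exceeded every p53-driven tumor. The log2 fold change was 0.53 (95% interval -0.71 to 1.78, edgeR adjusted p = 0.578), and without M624 it was -0.06.

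H2-Eb1 encodes the beta chain of the second class II molecule, I-E. It read 5.13 CPM in F187, 15.2 in F325, 16.5 in F331 and 10.1 in F368, against 3.69 in M351, 19.2 in M408, 9.56 in M9, 60.9 in M624 and 23.9 in M664. The 3 Myc-knockin libraries with little genomic background were above all p53-driven tumors, and the other Myc-knockin pair was not. Across all tumors the log2 fold change of 1.02 (standard error 0.65, 95% interval -0.41 to 2.45) was the highest of the 8, with an edgeR adjusted p of 0.341. H2-Eb1 was called without the 4 satellite-rich libraries, at a log2 fold change of 1.61 with an edgeR adjusted p of 0.044, but that comparison sets 3 p53-driven tumors against M624 and M664 and called 27.9% of all tested genes. The change rested on this pair. It was 0.37 without M624 and 0.01 without both (adjusted p = 0.705 and 0.995). Its alpha chain partner, H2-Ea, had at most 4 reads in any tumor and was not tested.

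Cd74 (ENSMUSG00000024610, chromosome 18 from 60803848 to 60812652), the invariant chain, was 28 CPM in F187, 76.6 in F325, 84.2 in F331 and 58.8 in F368. Among the Myc-knockin tumors it was 12.3 in M351, 95.6 in M408, 24.7 in M9, 165 in M624 and 96.6 in M664, so that this model held both the lowest values and the 3 highest ones. The means of 61.9 ± 25 CPM (SD, n = 4) and 78.8 ± 61.9 CPM (SD, n = 5) gave a log2 fold change of 0.36 (95% interval -1.02 to 1.74, edgeR adjusted p = 0.751). This value was -0.01 without M624.

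The same libraries stood at the extremes from gene to gene. M624 was the highest of the 9 tumors for 5 of the 8 members. The libraries with a background over 5% were mostly low, with F187 among the lowest 3 for 6 of 8 members, M351 for 6 and M9 for 5. Whether the background or the tumor set these low values was not tested.

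**Figure D2:**
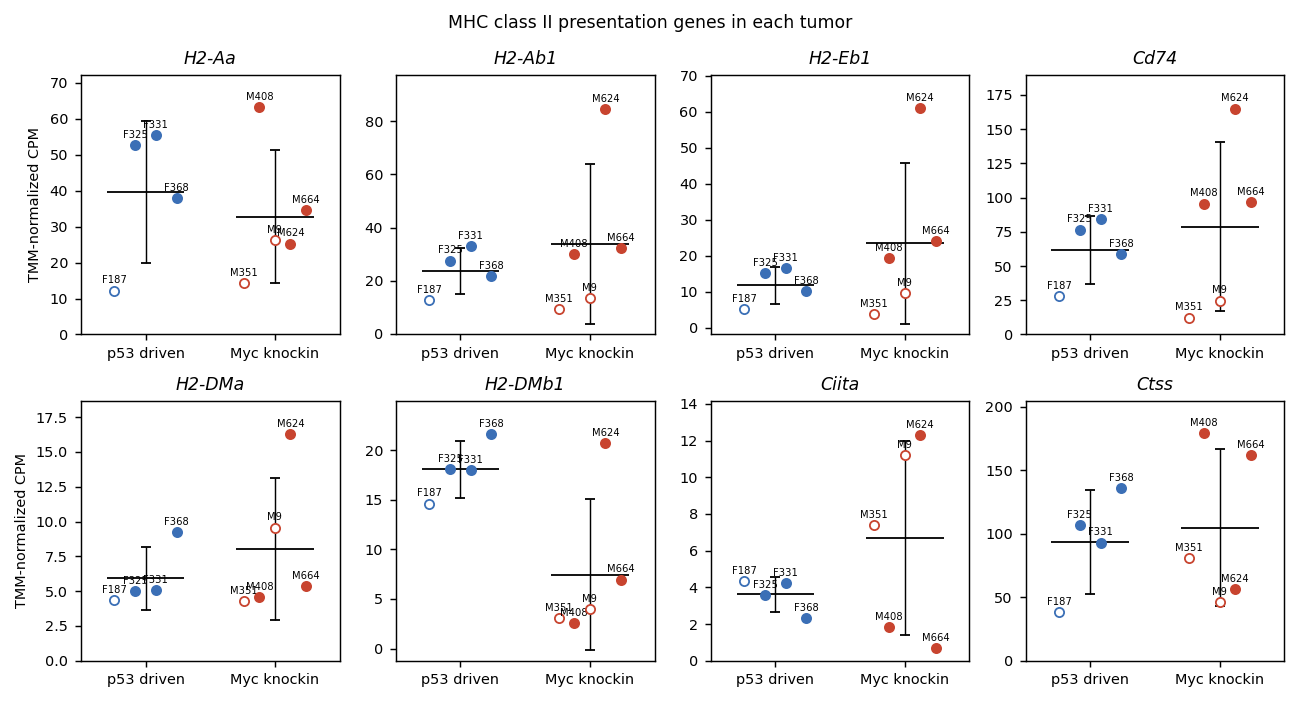
CPM of each class II gene by tumor, with p53-driven tumors in blue and Myc-knockin tumors in red, the mean as a line and the SD as a bar. Open circles are the 3 libraries with an estimated genomic background over 5% (F187, M351 and M9); M624 stands highest in 5 panels, at 165 CPM for Cd74, and the groups overlap in all 8.

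The DM genes did not follow the chains. H2-DMa read 4.34 CPM in F187, 4.98 in F325, 5.1 in F331 and 9.24 in F368, and 4.31 in M351, 4.58 in M408, 9.56 in M9, 16.3 in M624 and 5.35 in M664. The M351 and M9 values rest on 7 and 12 reads, of which about 3.9 and 4.3 would be background. All tumors but M624 lay between 4.31 and 9.56 CPM, and the log2 fold change was 0.44 (95% interval -0.65 to 1.54, edgeR adjusted p = 0.603), or 0.03 without M624. On the opposite strand, 10.4% of the exon bases of H2-DMa overlap exons of Brd2, and the strand setting of the counting was not stated, so reads of Brd2 may be included.

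H2-DMb1 was the member nearest to a difference. It was even in the p53-driven tumors, at 14.6, 18.1, 18 and 21.6 CPM. In the Myc-knockin tumors it was 3.08 in M351, 2.56 in M408, 3.98 in M9 and 6.95 in M664, all under the lowest p53-driven tumor, while M624 had 20.7 CPM. The means were 18.1 ± 2.87 CPM (SD, n = 4) and 7.45 ± 7.59 CPM (SD, n = 5), and the log2 fold change was -1.20 (standard error 0.57, 95% interval -2.45 to 0.04, edgeR adjusted p = 0.2). Without M624 the log2 fold change was -2.00 with an edgeR adjusted p of 0.0349, in a comparison that called 2.62% of all tested genes, and without both M624 and M664 it was -2.50 with an adjusted p of 0.0241 (4.61% called). limma-voom with quality weights, which can give an unusual library less weight, also called H2-DMb1, at -1.78 and an adjusted p of 0.0451, with 10.8% of all tested genes called. In the other direction, the change shrank to -0.46 (edgeR adjusted p = 0.499) without the 4 satellite-rich libraries. The low values rest on few reads, with 5 in M351, 14 in M408 and 5 in M9, but on 161 in M664. Its neighbour H2-DMb2 is similar in sequence, sharing 251 of the 1329 stretches of 76 bases in H2-DMb1 (18.9%), and reads from the shared part may have been divided or lost in counting. H2-DMb2 had at most 20 reads in any tumor.

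The proportion of the DM transcripts differed more than either level. Per read of H2-DMb1, the p53-driven tumors had 0.297, 0.275, 0.284 and 0.427 reads of H2-DMa, a narrow band. The Myc-knockin tumors had 1.4 in M351 (95% binomial interval 0.382 to 5.59), 1.79 in M408 (0.893 to 3.72), 2.4 in M9 (0.787 to 8.7), 0.786 in M624 (0.691 to 0.894) and 0.77 in M664 (0.604 to 0.98). Every Myc-knockin tumor thus lay above every p53-driven tumor, M624 included. In log2 terms the ratio was -1.63 ± 0.28 (SD, n = 4) and 0.35 ± 0.70 (SD, n = 5). The pair was noticed among all 28 ratios between members and is given without a test. Of the 28, the groups were separate in 4, of which 3 involved H2-DMb1, with H2-Ab1, H2-Eb1 and H2-DMa. The other was H2-Eb1 to Cd74, at -2.39 ± 0.09 on the log2 scale in the p53-driven and -1.76 ± 0.40 in the Myc-knockin tumors. Its groups were barely separate. F325 had 196 reads of H2-Eb1 to 985 of Cd74, and M408 had 105 to 522, nearly the same ratio. In M351 it rests on 6 reads of H2-Eb1, of which about 2.2 would be background. The share of separate ratios over all pairs of tested genes was not computed. In ratios to Ptprc and Csf1r, taken up below, 28.4% and 64.1% of all tested genes were separate. Those 2 genes were themselves lower in every Myc-knockin tumor, so these shares are no background for ratios between members. Whether 4 separate ratios of 28 is unusual was not tested. The limits given above for H2-DMa, background reads in M351 and M9 and possible reads of Brd2, hold for its ratios too.

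The I-A chains kept a like proportion in 6 of the 9 tumors. Reads of H2-Aa per read of H2-Ab1 numbered 1.9, 1.68 and 1.73 in F325, F331 and F368, and 1.53, 2.12 and 1.94 in M351, M408 and M9. They numbered 0.299 in M624 (95% binomial interval 0.274 to 0.327) and 1.06 in M664 (0.962 to 1.18), while F187, with 31 and 32 reads, had 0.969 (0.572 to 1.64). M624 was the only tumor in which the beta chain clearly outnumbered the alpha chain. The high H2-Ab1 of that tumor was therefore not matched by H2-Aa, which at 25.3 CPM was among the lowest 3 of the 9 tumors. These intervals cover counting error only.

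**Figure D3:**
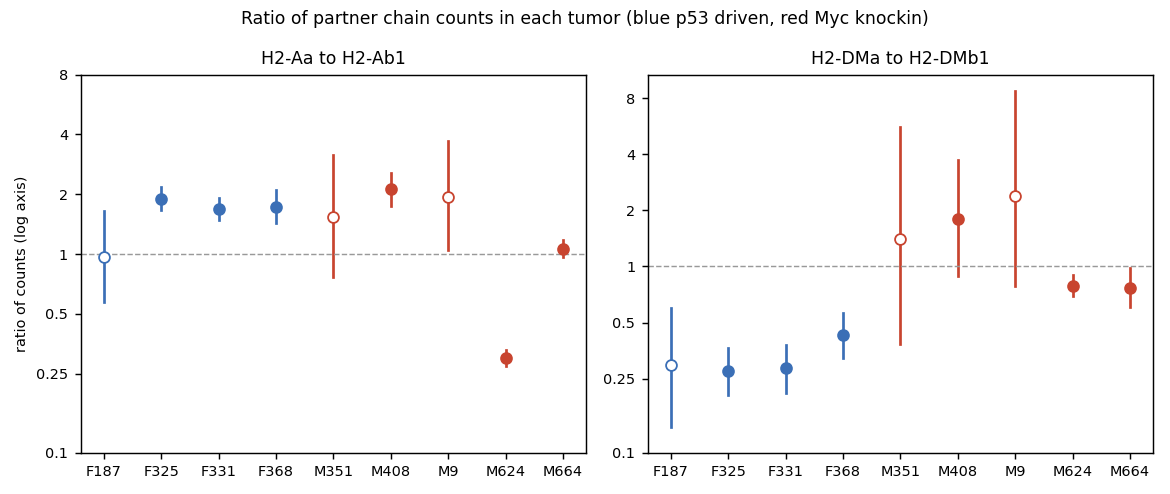
Ratios of read counts between paired chains in each tumor, with 95% binomial intervals that cover counting error only, on a log axis. H2-Aa to H2-Ab1 falls to 0.299 in M624, and H2-DMa to H2-DMb1 stays at or under 0.427 in the p53-driven tumors and at or over 0.77 in the Myc-knockin tumors.

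Ciita (ENSMUSG00000022504, chromosome 16 from 10480059 to 10528418) was low in every tumor. It read 4.34, 3.58, 4.24 and 2.31 CPM in the p53-driven tumors and 7.39 in M351, 1.83 in M408, 11.2 in M9, 12.3 in M624 and 0.691 in M664. The Myc-knockin model held the 3 highest and the 2 lowest values, with a log2 fold change of 0.86 (95% interval -0.81 to 2.53, edgeR adjusted p = 0.501). It was 0.46 without M624 and 0.33 after subtraction of the estimated genomic background. The raw reads qualify those levels. M351 had 12 reads where the background estimate is 10.7, and M9 had 14 where it is 11.8, so the levels of these tumors are close to background. F187 had 11 reads against 6.8. M624, however, had 323 reads against 0.4, and M664 with a similar depth had 16. Of the exon bases of Ciita, 3.45% overlap Dexi on the other strand.

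**Figure D4:**
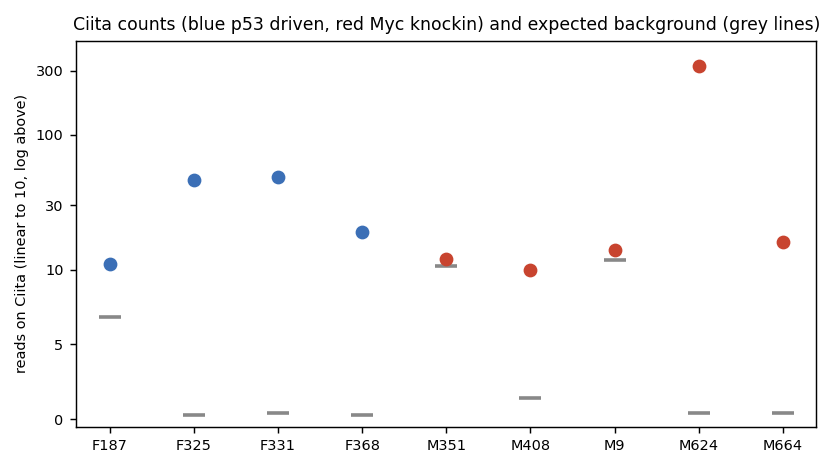
Reads counted on Ciita in each tumor (points, blue for p53 driven and red for Myc knockin) with the reads expected from genomic background (grey lines), on an axis that is linear to 10 and logarithmic above. M351 and M9 lie just above their background lines, and M624 stands apart at 323 reads.

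Levels of the regulator and its targets did not run in parallel over the 9 tumors. M624 was the highest for both Ciita and Cd74. M664, on the other hand, had the second highest Cd74, at 96.6 CPM, with the lowest Ciita, and M408 had 95.6 CPM of Cd74 with 1.83 CPM of Ciita. The log2 ratio of Ciita to Cd74 spanned -6.77 in M664 to -0.72 in M351, where the Ciita reads are near background.

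Ctss (ENSMUSG00000038642, chromosome 3 from 95526786 to 95556403), the protease that trims the invariant chain, was on average the most abundant member. It was 38.3 CPM in F187, 107 in F325, 93 in F331 and 136 in F368, and 80.6 in M351, 179 in M408, 46.2 in M9, 56.2 in M624 and 162 in M664. The tumor with the most Cd74, M624, had one of the lower Ctss levels. The log2 fold change was 0.17 (95% interval -0.88 to 1.21, edgeR adjusted p = 0.857).

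The class II genes were next set against markers of the cells that express them. Ptprc (CD45, carried by all leukocytes) was 63.2 CPM in F187, 76.3 in F325, 121 in F331 and 85.6 in F368, and 32.6 in M351, 54.4 in M408, 45.4 in M9, 7.77 in M624 and 29.1 in M664. All Myc-knockin tumors were lower, although the change of -1.37 (standard error 0.46) did not pass the test, at an edgeR adjusted p of 0.0922. M624, highest for H2-Ab1, H2-Eb1 and Cd74, was lowest for Ptprc. DESeq2 called Ptprc (-1.34, adjusted p = 0.0394), as did edgeR without the 4 satellite-rich libraries (-2.33, adjusted p = 0.0366), and limma-voom did not. The log2 ratio of Cd74 to Ptprc was -1.17, 0.01, -0.52 and -0.54 in the p53-driven tumors and -1.39, 0.81, -0.87, 4.37 and 1.72 in the Myc-knockin tumors in the order above. The groups overlapped, with means of -0.55 ± 0.48 (SD, n = 4) and 0.93 ± 2.30 (SD, n = 5), and the difference of 1.48 had p = 0.278 in a two-sided exact permutation test over 126 arrangements. Without F187, M351 and M9 the difference was 2.65 with an exact permutation p = 0.1, the smallest that those 6 tumors allow. The planned omissions moved the difference both ways. Dropping a single tumor gave values from 0.62 without M624 (exact permutation p = 0.486) to 2.06 without M351 (exact permutation p = 0.114). Without the 4 satellite-rich libraries the difference was 3.40 (exact permutation p = 0.1 over 10 arrangements). Without M624 and M664 it was 0.07 (exact permutation p = 0.971), so that the difference rested on M624 and M664.

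**Figure D5:**
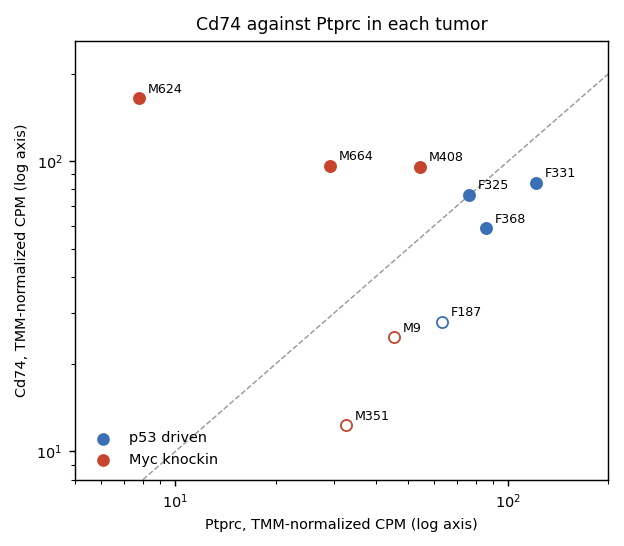
Cd74 against Ptprc by tumor, in CPM on log axes, with p53-driven tumors in blue, Myc-knockin tumors in red and open circles for the 3 libraries with a genomic background over 5%. M624 lies alone with 165 CPM of Cd74 and 7.77 CPM of Ptprc.

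Macrophage markers showed another picture. Of 13, all tested, 3 fell in the Myc-knockin tumors and none rose, with a median log2 fold change of -0.68 against 0.14 for all tested genes. The fitted change was lower for 9 and higher for 4. The genes of complement C1q, named like Fcgr1 and Aif1 after their values were seen, were at 0.17 (C1qa), 0.56 (C1qb) and -0.05 (C1qc), with Fcgr1 at 0.65 and Aif1 at 0.06, none of them called. The other markers without a call were all lower. They were Cd163 (-1.31), Mertk (-1.21), Mrc1 (-0.90), Adgre1 (-0.68) and Lyz2 (-0.39). Csf1r, the receptor for the macrophage growth factor CSF1, fell by 2.47 on the log2 scale (standard error 0.47, edgeR adjusted p = 0.0243). Cd68, a lysosomal protein, fell by 2.27 (0.42, adjusted p = 0.0229), and Tyrobp, a signaling adaptor, fell by 2.13 (0.50, adjusted p = 0.0392). These calls were lost in 6, 6 and 10 of the 21, 21 and 20 alternative analyses run for Csf1r, Cd68 and Tyrobp. Without F187, M351 and M9 their adjusted p values were 0.0716, 0.0698 and 0.113 at changes of -2.39, -2.01 and -1.66. The summed level of the 13 was 932 to 1595 CPM in the p53-driven and 402 to 1208 CPM in the Myc-knockin tumors. All of them had reads in every tumor. Csf1r, Cd68 and Tyrobp are carried by osteoclasts as well, and 6 of 8 osteoclast markers also fell, with a summed level of 2716 to 14151 CPM and 124 to 2570 CPM. They were Ctsk, Calcr, Ocstamp, Dcstamp, Oscar and Atp6v0d2, among which Ctsk, the bone-resorbing cathepsin, fell by 3.81 (0.86, edgeR adjusted p = 0.0348).

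Relative to Csf1r, 5 of the 8 class II genes (H2-Aa, H2-Ab1, H2-Eb1, H2-DMa and Ctss) were higher in every Myc-knockin tumor than in any p53-driven tumor. Csf1r itself fell, and the groups were separate in the same ratio for 64.1% of all tested genes, so this share of the members is near the background. Relative to Ptprc the groups overlapped for all 8 members, against 28.4% of all tested genes with separate groups.

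Other antigen-presenting cells were scarcely seen. Of 9 dendritic cell markers 4 were tested and none was called by edgeR, DESeq2 or limma-voom, and their summed level was 23 to 35.2 CPM in the p53-driven and 16.8 to 74.1 CPM in the Myc-knockin tumors. The top dendritic cell sums, 74.1 CPM in M9 and 40.6 CPM in M351, came from the libraries with the most background. Zbtb46, a transcription factor of these cells, was 16.3 ± 1.7 CPM (SD, n = 4) against 11.6 ± 8.6 CPM (SD, n = 5), Itgax 5.95 ± 2.94 against 8.52 ± 3.44, and Clec9a 2.23 ± 0.314 against 2.72 ± 2.38. In M624 these were 2.51, 2.9 and 0.0762 CPM, and Flt3, Xcr1, Cd209a and Siglech were at 0 reads. Cd209a was at 0 in F368 and M664 too. The remaining markers, Batf3 and Ccr7, named after their values were seen, went the other way in M624. They were highest there of the 9 tumors, at 9.49 CPM (249 reads) and 1.87 CPM (49 reads), and neither was tested. Of 6 B cell markers 3 were tested (Cd22, Cd79b and Pax5) with no call, all but Cd79a in F325 had reads in every tumor, and the sum was 4.12 to 11.5 CPM and 4.8 to 30.3 CPM. The highest sums, 30.3 CPM in M9 and 24 in M351, belong to the libraries with the most background. Of 8 T and NK cell markers only Cd4 was tested, at 10.7 ± 6.33 CPM and 9.35 ± 8.21 CPM, and the summed level in M624, 3.09 CPM, was the lowest of the 9, with Cd3g, Cd8a and Nkg7 at 0. The part of all these cells in the class II levels was not tested.

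Upstream of Ciita, the interferon-gamma pathway had 10 of 11 genes tested. One fell, none rose, and the median log2 fold change was -0.86. The gene that fell was Ifngr2, a chain of the interferon-gamma receptor, with 76.6, 95.1, 94 and 92.5 CPM in the p53-driven tumors and 20.3, 42.7, 56.6, 19.7 and 35.5 CPM in the Myc-knockin tumors. Its change of -1.37 (standard error 0.33) had an edgeR adjusted p of 0.0421, and the groups did not overlap. The call was lost in 13 of 21 alternative analyses, among them that without F187, M351 and M9 (-1.53, adjusted p = 0.0578), with the change between -1.74 and -1.11 in all. Ifng itself had at most 3 reads in any tumor and was not tested. Among those without a call by edgeR, named after their values were seen, were the kinase Jak1 (-1.15, adjusted p = 0.0674), the macrophage and B cell factor Spi1 (-1.71, adjusted p = 0.0677) and the transcription factor Irf1 (-0.84, adjusted p = 0.175). The fitted change was lower for 8 of the 10 genes and higher for 2. Those 2, also named after their values were seen, were Irf8 (0.62, edgeR adjusted p = 0.444) and Socs1 (0.26, edgeR adjusted p = 0.755). DESeq2 and limma-voom each called 3 of the 10, where they called 17.4% and 10.8% of all tested genes. These 3 were Ifngr2, Jak1 (DESeq2 and limma-voom adjusted p = 0.0142 and 0.0254) and Spi1 (adjusted p = 0.0133 and 0.0323). Spi1 was called in 5 of 21 alternative analyses.

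The factors that hold Ciita on the X and Y boxes showed no call by edgeR, DESeq2 or limma-voom among 7 tested, 1 with an unadjusted edgeR p under 0.05, and a median log2 fold change of 0.27. Nfya, a subunit of NF-Y, was 82.4 ± 19.3 CPM (SD, n = 4) against 50 ± 19.5 CPM (SD, n = 5) with the Myc knockin (edgeR adjusted p = 0.18). Creb1 was 84.1 ± 6.12 and 58.8 ± 22.1 CPM, and Nfyc 12.3 ± 3.08 and 17.6 ± 10.6 CPM. These factors serve many genes and were present in all tumors, with sums of 207 to 259 CPM and 132 to 221 CPM.

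Endosomal processing enzymes likewise gave no call among 7 by edgeR, 1 with an unadjusted p under 0.05, and a median of -0.41. Of the 7, DESeq2 called 1, Ifi30, and limma-voom 2, Ifi30 and Cst3, against 17.4% and 10.8% of all tested genes. The genes with the most reads were Ctsb, Cst3 and Ctsl. For the protease Ctsb, levels ran from 363 to 795 CPM in the p53-driven and from 186 to 850 CPM in the Myc-knockin tumors. The cathepsin inhibitor Cst3 was at 318 ± 77.2 CPM (SD, n = 4) and 172 ± 103 CPM (SD, n = 5), and Ctsl, at 152 ± 27.4 and 237 ± 204 CPM. Ifi30, the endosomal thiol reductase GILT, named after its values were seen, was 151 ± 59.3 and 58.6 ± 35.8 CPM (-1.35, standard error 0.45, edgeR adjusted p = 0.0898). Its adjusted p was 0.0233 with DESeq2, 0.0127 with limma-voom and 0.0337 with edgeR without M624 and M664. Genes of class II surface turnover (4 tested) and costimulation (4 tested) gave no call by edgeR, with medians of -0.01 and 0.06 and 0 and 1 gene at an unadjusted p under 0.05. In the former, Marchf8, a ubiquitin ligase that removes class II from the surface, was 90.8 ± 36.1 and 56.5 ± 29.2 CPM, Cd9 88.6 ± 25.1 and 119 ± 75.4 CPM, and Marchf1 9.45 ± 3.56 and 11 ± 9.01 CPM. In the latter, the ligand Icosl was higher in every Myc-knockin tumor, at 9.07 ± 1.76 against 4.17 ± 0.652 CPM, without passing the test (1.12, edgeR adjusted p = 0.0819), though DESeq2 called it (adjusted p = 0.0194). Cd40 was 8.41 ± 2 and 5.86 ± 2.87 CPM and Cd86 5.8 ± 1.79 and 5.99 ± 3.67 CPM.

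The 5 further class II genes of the table, H2-Ea, H2-Eb2, H2-DMb2, H2-Oa and H2-Ob, had too few reads to be tested. H2-Eb2 had 51 reads in M624 and at most 6 in any other tumor. H2-Oa and H2-Ob, which restrain DM in B cells, had at most 5 and 13 reads.

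MHC class I genes, which present peptides from inside the cell, were compared as the most closely related set. Of 7, all tested, 2 fell and none rose, with a median log2 fold change of -0.88. Tapbp (tapasin, which holds class I to the peptide transporter) fell by 2.18 on the log2 scale (standard error 0.33, edgeR adjusted p = 0.0175), from 139 ± 21.1 CPM to 30.6 ± 12 CPM, and Tap2, a subunit of that transporter, fell by 1.89 (0.40, adjusted p = 0.0301). The calls were lost in 4 of 21 and 8 of 20 alternative analyses. Both lie in the same MHC as the class II chains, among which none fell by the test. B2m, the shared light chain, was 720 ± 145 and 311 ± 96.7 CPM (-1.21, edgeR adjusted p = 0.063). Nlrc5, the class I counterpart of Ciita, was by contrast 14.9 ± 1.43 and 31.5 ± 14.3 CPM (1.08, edgeR adjusted p = 0.0949). Both were named after their values were seen. DESeq2 called both, with adjusted p values of 0.00219 and 0.0339, and 4 of the 7 in all, against 17.4% of all tested genes. limma-voom called 5, namely B2m, H2-D1, H2-K1, Tap2 and Tapbp, against 10.8% of all tested genes. The class I chains H2-K1 and H2-D1, likewise named after their values were seen, were at -0.54 and -0.88 by edgeR (adjusted p = 0.555 and 0.294). Whether the sets differ from each other was not tested.

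Finally, the transcripts whose pattern over the 9 tumors was most like the mean log2 CPM of H2-Aa, H2-Ab1, H2-Eb1 and Cd74 were sought among 9533 genes with at least 10 CPM on average. The 10 nearest, by Pearson r, were Esd (0.93), Exoc3 (0.93), Mtx2 (0.93), Bnip3l (0.93), Rnps1-ps (0.92), Stx16 (0.92), Ccar2 (0.91), Trak1 (0.91), Anxa11 (0.90) and Gtf3c2 (0.90). None is on the lists of leukocyte markers used here. Without M624, r was 0.87 to 0.95 for these genes. Among the members left out of that mean, r was 0.44 for Ctss, 0.42 for H2-DMa, 0.37 for H2-DMb1 and -0.25 for Ciita, and without M624 it was 0.73, 0.04, 0.24 and -0.67. For Ptprc it was -0.25, or 0.36 without M624. All points share the differences in depth and background among the libraries, and the values are descriptions.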

How the data were processed

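RNA of whole tumors was sequenced after a stranded kit with oligo-dT enrichment. Per the labels and the study's methods, the authors trimmed reads with Trim Galore, aligned them to mm10 with STAR and counted them per gene with featureCounts, and the deposited values are raw counts. Strand setting and handling of multiply mapped reads are not given in the sources used here. The 6 trailing columns without a name, empty but for a stray letter, were not used.

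Counts were tested in R 4.3.3 with edgeR 4.0.16 (TMM, filterByExpr with a minimum count of 10, glmQLFit, glmQLFTest, no covariates), with Benjamini-Hochberg adjustment over 15365 genes. A call needed an adjusted p under 0.05 with a change of over 1.5-fold. CPM are TMM normalized, and log2 values use a prior count of 2. Fold changes are Myc knockin over p53 driven. The labels do not say that each sample came from a separate mouse, so p-values measure the spread between these samples.

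Genomic background was scaled from reads on 1765 chemosensory receptor genes to each gene's exon length (GENCODE vM21). Binomial intervals are exact at 95%. Scripts were tested on simulated counts with known changes. Of the genes called there, 5.05% were false with edgeR, 21.9% with DESeq2 and 2.44% with limma-voom. DESeq2 1.42.0 and limma 3.58.1 served as alternatives, along with other scalings and filters, removal of satellite genes or background, and omission of tumors.

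The members and gene lists were chosen with earlier results of these data known. Named are all members, and in each list the genes called or else the 3 with the most reads. Others are said to have been named after their values were seen.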

Additional observations from a re-analysis of the deposited data

Results flagged for a closer look

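Of 46 sets of 4 or 5 values tested for a single tumor far from the rest of its group, 6 had one, where chance gives about 1 in 20. Among the DM genes, F368 had 9.24 CPM of H2-DMa, above the other p53-driven tumors, and M624 had 20.7 CPM of H2-DMb1, above the other Myc-knockin tumors. Relative to Ptprc, the log2 ratio of H2-DMa was 1.05 in M624, the highest of the Myc-knockin tumors, and that of H2-DMb1 was -2.73 in F331, the lowest of the p53-driven tumors. The log2 ratio of H2-Eb1 to H2-Ab1 was -1.28 in M351, below the other Myc-knockin tumors, where it rests on 6 and 15 reads. The log2 ratio of Ciita to Cd74 was -2.64 in F187, above the other p53-driven tumors, where 6.8 of the 11 Ciita reads would be background.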

How the results depend on the processing

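No paired analysis was possible because the columns carry none of the labels' replicate numbers. The count of members called was 0, and it became 1 with limma-voom (H2-DMb1), 1 without M624 and M664 (H2-DMb1), 1 without the 4 satellite-rich libraries (H2-Eb1), and 0 to 1 with each tumor left out in turn. H2-Ab1 changed sign with limma-voom (-0.19), without M624 and M664 (-0.32), and within its leave-one-out range of -0.06 to 0.77. Cd74 did so with limma-voom (-0.64), without M624 and M664 (-0.36), and within -0.01 to 0.63. Ctss did so without the satellite-rich libraries (-0.01) and within -0.11 to 0.40. Against Csf1r in place of Ptprc, the difference in the Cd74 ratio was 2.55 (exact permutation p = 0.0238), while Csf1r itself had been called lower, and against the mean of the macrophage list it was 0.84 (exact permutation p = 0.429). The count of all genes called, 809, was 136 with library size alone, 494 among genes with at least 1 count, 1316 with at least 10 counts in every tumor (which drops H2-Eb1, H2-DMa and H2-DMb1), 2670 with DESeq2, 1663 with limma-voom, 4595 without the satellite-rich libraries, 530 without F187, M351 and M9 (chosen after seeing the data), and 5 (without F368) to 1588 (without M9) with each tumor left out. The cause was not tested. Of 394 values for single genes, 316 kept direction and side of the threshold, 51 lost and 17 gained a call, and 10 changed sign. Depth limits the members with few reads in M351 and M9, such as Ciita, H2-Eb1 and the DM genes, and 3 reads equal 2.39 CPM in M9.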
